A study of Mus musculus with 4 samples.

Results

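The genes described here encode MHC class I molecules, the machinery that loads them with peptide, and the immunoproteasome. They were chosen by name, as 10 gene symbols, and all 10 were found among the 44788 gene rows of the count table. RNA from colon tissue of C57BL/6 mice gave 4 libraries, 1 per group, from mice labelled wild type (WT) or Card9-/- that were untreated or treated. Both untreated libraries carry the label day 0. The treated mice of either genotype label received AOM/DSS: azoxymethane (AOM), a carcinogen, and then dextran sulfate sodium (DSS), which injures the epithelium, so that tumours form in an inflamed colon. AOM was given at 10 mg/kg on day 1, DSS followed after 5 days at 2% in 3 cycles of 7 days, and the colons were taken on day 100, so treatment and time of collection cannot be told apart. The sources used here do not say whether RNA of several animals was pooled. With 1 library per group, no difference between libraries has a replicate check, and no p-value is given. The intervals given hold for counting error alone. They may be too narrow even for that, since reads lacking molecular identifiers are not separate molecules.

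MHC class I molecules show short peptides from inside the cell to CD8 T cells and are read by receptors of natural killer cells. The peptides are cut by the proteasome, carried into the endoplasmic reticulum by the TAP transporter, and fitted onto a heavy chain paired with beta-2 microglobulin by the loading complex around tapasin. Interferon induces the immunoproteasome subunits, which take the place of the standard catalytic ones, and raises the transcription of the whole pathway, in part through Nlrc5, a coactivator that acts at class I promoters. Class I genes are made by nearly all nucleated cells, including the epithelium and leukocytes of the colon.

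The libraries held 23022885 to 27706567 counts. Card9 was counted in all of them and was higher in the libraries labelled knockout, at 3.18 CPM (counts per 1000000, scaled with TMM factors) untreated and 7.73 CPM after AOM/DSS, than in the WT libraries, at 1.75 and 5.32 CPM. The targeted gene thus goes against the genotype label, and gene-level counts cannot tell whether the deleted part was read. These samples are called libraries labelled knockout throughout. The 4 libraries were not equally alike. Across 15173 genes the log2 values of the AOM/DSS library labelled knockout correlated with the other libraries at 0.798 to 0.829, while those correlated with each other at 0.933 to 0.947. Markers of the labelled tissue were present in every library, since all 6 epithelial markers and all 7 colonocyte and goblet cell markers had counts throughout. The summed colonocyte and goblet level was, however, 1463 CPM in that AOM/DSS library and 12453 to 23108 CPM in the others.

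Of the 10 genes, 7 lie on chromosome 17 in the mouse major histocompatibility complex, among them H2-K1 (33996017 to 34000347, GRCm38) and H2-D1 (35262730 to 35267499). The others there are Tapbp (33915899 to 33929292), Psmb8 (34197721 to 34201454), Tap2 (34203527 to 34216321), Tap1 and Psmb9. Psmb10 (105935735 to 105938444) and Nlrc5 (94434356 to 94527272) lie on chromosome 8, and B2m lies on chromosome 2 from 122147686 to 122153083. Tap1 (34187553 to 34197225) and Psmb9 (34181987 to 34187764) are neighbours on opposite strands whose RefSeq starts are 226 bases apart. RefSeq start sequences (GRCm38.p6) were found for 8 of the 10 genes, all but Tap2 and Nlrc5. The stretch before the start is shown for the heavy chain gene H2-K1 and the light chain gene B2m. No exon of another gene is annotated in either stretch. Capitals in these stretches mark kB sites, which NF-kB binds, and the core of the interferon-stimulated response element. A kB site was read as GGGGA and TCCCC, or in a second form as GGGA and TTTCC, with 1 base between, and the interferon element as GAAA and GAAA with 2 bases between.
H2-K1, chr17:34000348-34000597, minus strand: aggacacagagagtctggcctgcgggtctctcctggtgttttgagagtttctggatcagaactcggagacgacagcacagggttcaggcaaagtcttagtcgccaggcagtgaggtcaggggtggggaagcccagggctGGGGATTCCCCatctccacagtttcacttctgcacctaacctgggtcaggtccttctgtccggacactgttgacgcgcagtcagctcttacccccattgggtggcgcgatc
B2m, chr2:122147437-122147685, plus strand: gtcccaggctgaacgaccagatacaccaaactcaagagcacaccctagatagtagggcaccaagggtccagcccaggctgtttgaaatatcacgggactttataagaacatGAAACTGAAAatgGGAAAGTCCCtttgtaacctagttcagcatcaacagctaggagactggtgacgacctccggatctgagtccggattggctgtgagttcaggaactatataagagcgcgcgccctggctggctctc

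The first form of the kB site stood in 0.0457% of 32851 RefSeq promoters when the 250 bases before the start were searched on both strands. H2-K1 held it 101 to 111 bases before the start and H2-D1 held it 161 to 171 bases before the start. All 250 bases searched for H2-D1, Tap1, Psmb9, Psmb8 and Tapbp are annotated as exon of some transcript in GENCODE M21. For Tap1 they are exon of Psmb9, and for Tapbp they are in part exon of Zbtb22. These windows therefore lie before the RefSeq start but inside annotated genes. B2m held the second form (0.356% of promoters), beside the interferon element. An exact match to that element stood in 2.98% of promoters and in no other of the 8. Looser forms of it were not searched, so the other genes may hold one. The core TGACG of the CRE, which CREB and ATF factors bind, stood in 17.8% of promoters and in H2-K1, H2-D1, B2m, Tap1 and Psmb9. The same match served Tap1 and Psmb9, whose windows overlap. The CCAAT box, which NF-Y binds, stood in 33.8% of promoters and in those 5 genes and Tapbp. The matches in Tapbp lie in an exon of Zbtb22. These motifs were picked as ones known for this pathway, so their presence is a description and not a site or a cause.

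A further likeness was seen only after the matches had been read. In H2-K1, H2-D1 and B2m the core TGACG was followed by 20 bases and then by ATTGG, the CCAAT box read from the other strand. This spaced pair is known from MHC promoters as the X2 and Y boxes. It is part of the region where the RFX, CREB and NF-Y proteins assemble and recruit Nlrc5. The pair stood in 0.0913% of the 32851 promoters. The sites are shown with the boxes in capitals, to set the 3 genes side by side.
H2-K1, chr17:34000359-34000388, minus strand: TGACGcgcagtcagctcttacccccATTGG
H2-D1, chr17:35262993-35263022, plus strand: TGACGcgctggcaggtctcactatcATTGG
B2m, chr2:122147609-122147638, plus strand: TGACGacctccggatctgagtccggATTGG

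In all 10 genes the highest level was in the AOM/DSS library labelled knockout, while the other 3 libraries lay within 1.08-fold to 1.71-fold of each other. That library was also the highest of the 4 for 38.9% of all genes that reached 50 counts somewhere. The 10 genes together took 0.962% of its counts (95% Wilson interval 0.958% to 0.965%). They took 0.403% in untreated WT (0.400% to 0.405%), 0.337% in the untreated library labelled knockout (0.335% to 0.340%) and 0.351% in WT AOM/DSS (0.349% to 0.353%). In bulk tissue, more cells of a type and more RNA per cell cannot be told apart.

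**Figure D1:**
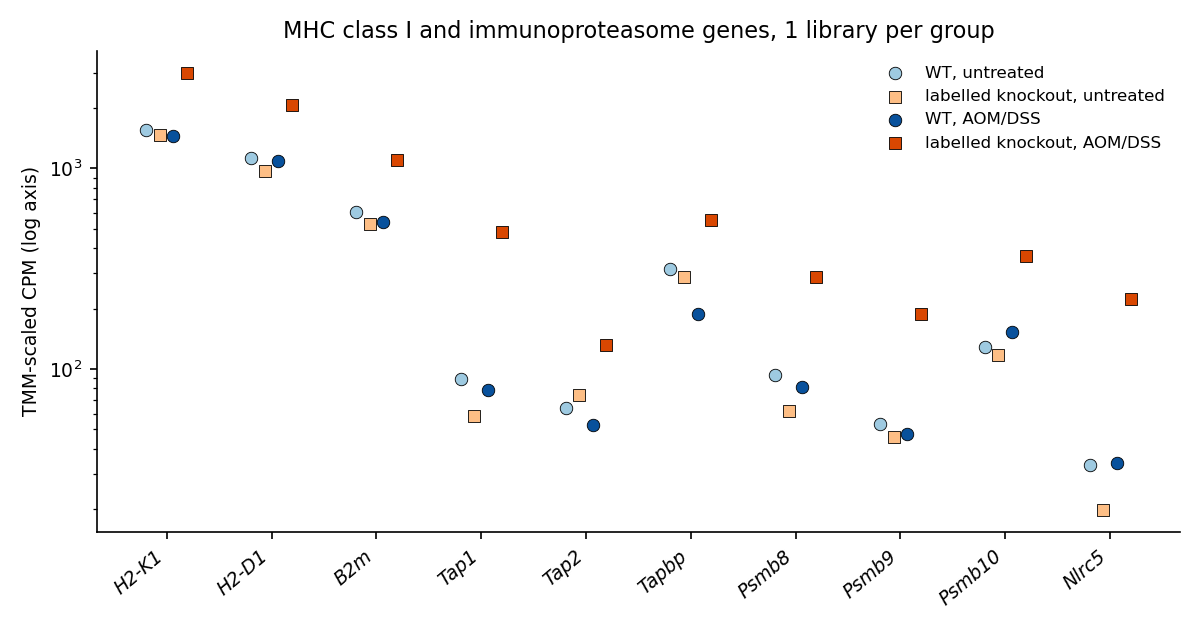
TMM-scaled CPM (vertical, log axis) of the 10 MHC class I and immunoproteasome genes in each of the 4 libraries, 1 point per library. The AOM/DSS library labelled knockout is the highest point for every gene, from 131 CPM for Tap2 to 3001 CPM for H2-K1.

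The heavy chain gene H2-K1 stood at 1555 CPM in untreated WT, 1466 CPM in the untreated library labelled knockout, 1445 CPM in AOM/DSS-treated WT and 3001 CPM in the AOM/DSS library labelled knockout. H2-D1, the other classical heavy chain gene of this strain, stood at 1122, 965, 1086 and 2079 CPM in the same order. B2m, the light chain that every class I heavy chain needs to reach the cell surface, stood at 609, 528, 540 and 1100.1 CPM. These are the most abundant genes of the group, and all 3 were near 2-fold higher in the last library and nearly level in the others. H2-K1 and H2-D1 are close copies, so reads can be divided between them or lost, and each is uncertain on its own.

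Tap1, the first subunit of the peptide transporter, stood at 89.5, 58.3, 78.8 and 484 CPM, in the same order. Tap2, the second subunit of that heterodimer, stood at 64.0, 74.2, 52.9 and 131 CPM. Tapbp, which encodes tapasin, the bridge between the transporter and the empty class I molecule, stood at 314, 286, 188 and 550.2 CPM. The partners Tap1 and Tap2 therefore differed in how far the last library was above the others, and Tap2 and Tapbp, like H2-K1, were lowest in WT AOM/DSS. An antisense gene, Gm19412, covers 23.5% of the exon bases of Tapbp, Gm15821 covers 15.1% of those of Tap2, and whether reads were counted by strand is not stated in the sources.

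Psmb8, which replaces Psmb5 in the immunoproteasome, stood at 93.4, 62.0, 81.2 and 288 CPM. Psmb9, which replaces Psmb6, stood at 53.1, 45.6, 47.3 and 187 CPM. Psmb10, which replaces Psmb7, stood at 129, 117, 153 and 365 CPM. The 3 subunits shared an order of the outer libraries, with the AOM/DSS library labelled knockout highest and the untreated one labelled knockout lowest. Psmb9 and Tap1 share 212 exon bases on opposite strands, 15.7% of the exon length of Psmb9 and 7.18% of that of Tap1. The antisense gene Gm20496 covers 11.4% of the exon bases of Psmb8.

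Nlrc5, the class I transactivator, stood at 33.2, 19.8, 33.9 and 223 CPM. Its counts were 837, 430, 739 and 7079, and the 430 was the smallest count of any of the 10 genes in any library. Nlrc5 was lowest in the untreated library labelled knockout, as were H2-D1, B2m, Tap1, Psmb8, Psmb9 and Psmb10. Levels between genes are compared per kb of exon. On that scale H2-K1, B2m and H2-D1 led in that order in every library, at 1813, 1279 and 989 CPM per kb in the AOM/DSS library labelled knockout. Nlrc5 was last in every library, at 4.09, 2.44, 4.17 and 27.5 CPM per kb. Tap1 was above Tap2 except in the untreated library labelled knockout, where they stood at 19.7 and 21.5 CPM per kb.

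WT AOM/DSS was first compared with untreated WT, for the effect of the protocol where the genotype label is normal. None of the 10 genes was 2-fold higher or lower, where 4.08% of all genes were at least 2-fold higher and 3.88% at least 2-fold lower. This size rule is applied to log2(CPM + 1) of genes that reach 50 counts in either library. Of the 10, 8 were lower in CPM, each with a counting interval of the ratio that excluded 1, and the median log2 ratio was -0.17 against 0.02 for all genes with 50 counts. Tapbp was 1.67-fold lower (95% counting interval 1.60 to 1.73) and Tap2 1.21-fold lower (1.12 to 1.31). Psmb10 was 1.19-fold higher (1.13 to 1.25). Nlrc5 did not differ beyond counting error (1.02-fold, 0.923 to 1.13), and its direction turned under scaling by library totals (0.975-fold).

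In the libraries labelled knockout all 10 genes were higher after AOM/DSS, and 8 of them passed the size rule as higher, where 14.1% of all genes did and 15.9% passed as lower. The median log2 ratio of the 10 was 1.37 against 0.03 for all genes. Nlrc5 was 11.3-fold higher (10.2 to 12.5) and Tap1 8.30-fold higher (7.84 to 8.80). The catalytic subunits followed, with Psmb8 4.64-fold (4.38 to 4.92), Psmb9 4.10-fold (3.84 to 4.39) and Psmb10 3.12-fold higher (2.99 to 3.26). The class I chains were 2.05-fold (H2-K1), 2.15-fold (H2-D1) and 2.08-fold (B2m) higher, just inside the 2-fold rule, while Tapbp (1.92-fold) and Tap2 (1.77-fold) lay just outside it. Scaling by library totals raised the median of all genes from 0.03 to 0.30 and put all 10 past the rule, and upper-quartile factors left 7, with H2-K1 at a log2 ratio of 0.98. The count of all genes that were higher went from 2245 to 3274 under library totals and to 2118 under upper-quartile factors.

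**Figure D2:**
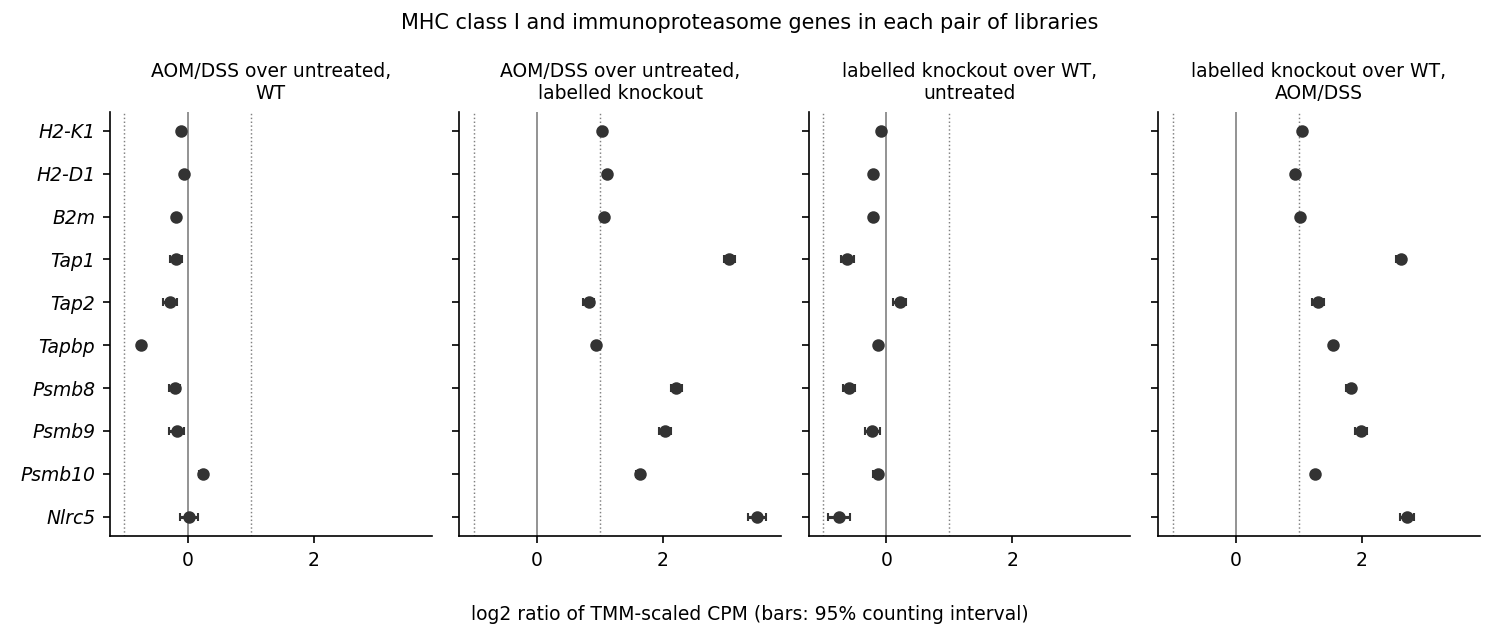
Log2 ratio of TMM-scaled CPM (horizontal) of each gene in the 4 pairs of libraries, with bars for the 95% counting interval and dotted lines at 2-fold. The genes lie inside the dotted lines in the WT pair (Tapbp lowest, at -0.73 on the log2(CPM + 1) scale) and in the untreated pair (Nlrc5 lowest, at -0.72), and between 1.77-fold (Tap2) and 11.3-fold (Nlrc5) higher in the AOM/DSS pair labelled knockout.

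Between the untreated libraries, which ask what the genotype label alone goes with, no gene passed the size rule, where 4.46% of all genes were higher and 3.37% lower. Of the 10, 9 had the lower level under the knockout label, and the median log2 ratio was -0.21 against -0.01 for all genes. Nlrc5 was 1.68-fold lower (1.49 to 1.89), Tap1 1.54-fold lower (1.43 to 1.65) and Psmb8 1.51-fold lower (1.41 to 1.61). Tap2 went the other way, at 1.16-fold higher (1.08 to 1.24).

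Between the AOM/DSS libraries each of the 10 had its higher level under the knockout label, and 9 passed the size rule, where 11.9% of all genes did as higher and 12.4% as lower. The median log2 ratio was 1.42 against 0.03 for all genes. Nlrc5 was 6.59-fold (6.11 to 7.12) and Tap1 6.14-fold higher (5.85 to 6.46), Psmb9 3.96-fold (3.71 to 4.23) and Psmb8 3.55-fold (3.37 to 3.73). Tapbp was 2.92-fold higher (2.82 to 3.02) and Tap2 2.48-fold (2.32 to 2.65). H2-D1 stayed outside the rule at 1.91-fold (1.89 to 1.94), beside H2-K1 at 2.08-fold and B2m at 2.04-fold. Scaling by library totals put all 10 past the rule and upper-quartile factors left 7, while the count of all genes that were higher went from 1870 to 2650 and to 1728.

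The AOM/DSS response of each gene was larger in the libraries labelled knockout than in WT. Subtracting the WT log2 ratio from the other left at least 1 log2 unit in all 10 genes, where 14.2% of all genes had a difference that large in this direction and 16.3% in the other. It ran from 1.08 in Tap2, 1.14 in H2-K1, 1.15 in H2-D1 and 1.23 in B2m to 3.21 in Tap1 and 3.40 in Nlrc5, with a median of 1.53 against -0.03 for all genes. CPM was lower after AOM/DSS in WT and higher in the libraries labelled knockout for 8 of the 10, a pattern that 21.9% of all genes had. With 1 library per group this difference was not tested.

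**Figure D3:**
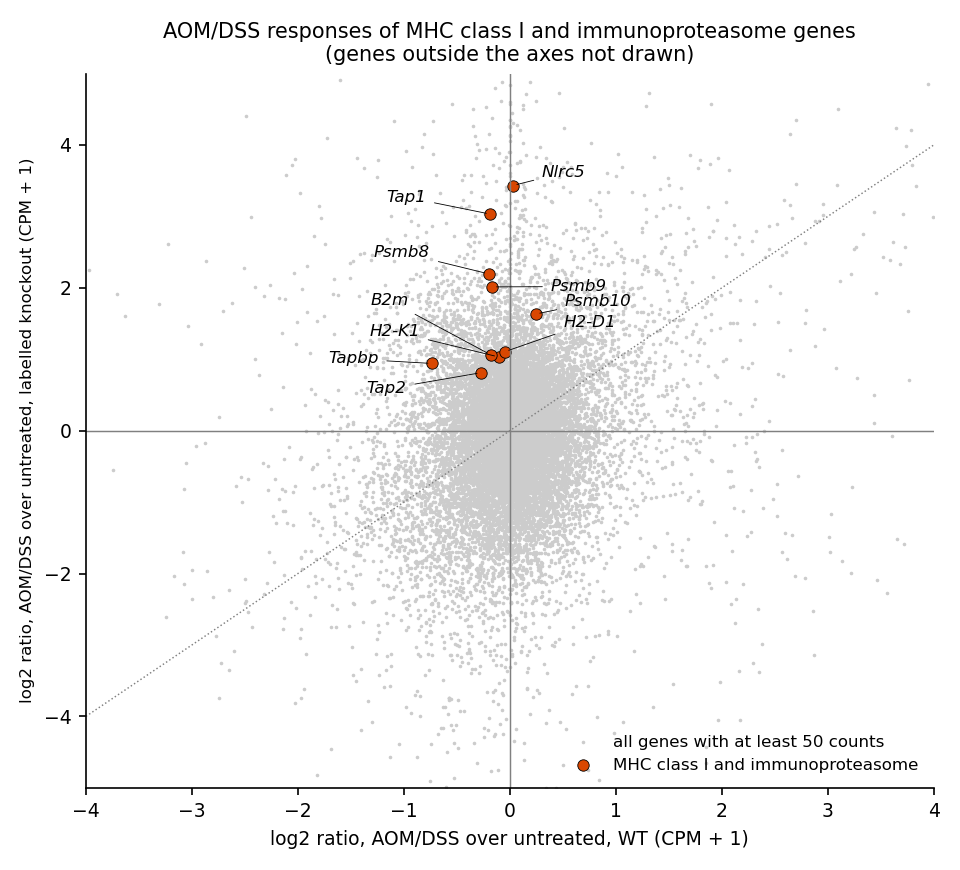
Log2 ratio of AOM/DSS over untreated on the log2(CPM + 1) scale in the WT libraries (horizontal) and in the libraries labelled knockout (vertical), with 1 grey point per gene and the 10 MHC class I and immunoproteasome genes in orange. Of 16383 genes, 94 lie outside the axes; the 10 genes lie from -0.73 (Tapbp) to 0.24 (Psmb10) on the horizontal axis and from 0.81 (Tap2) to 3.43 (Nlrc5) on the vertical axis.

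Ratios of genes within a library do not depend on how libraries are scaled to each other. Psmb8 over Psmb5, in counts per kb of exon, was 0.844 in untreated WT (0.791 to 0.900) and 0.362 in the untreated library labelled knockout (0.338 to 0.388). It was 0.667 in WT AOM/DSS (0.622 to 0.715) and 1.74 in the AOM/DSS library labelled knockout (1.67 to 1.82). Per kb, Psmb8 was thus above Psmb5 in the last library alone, but in counts not divided by exon length it was also above in untreated WT (1.53) and WT AOM/DSS (1.21). Psmb9 over Psmb6 was 0.312, 0.249, 0.273 and 0.768 in the same order, below 1 in every library per kb, though at 1.30 in the last one without division by length. Psmb10 over Psmb7 was 1.74, 1.56, 1.90 and 3.35, above 1 in every library. All 3 ratios were lowest in the untreated library labelled knockout and highest in the AOM/DSS library with that label.

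The standard subunit Psmb5 stood at 61.1, 94.7, 67.2 and 91.1 CPM, in the order of libraries given for H2-K1. Psmb6 stood at 100.5, 108, 102 and 144 CPM and Psmb7 at 65.3, 66.3, 71.2 and 96.5 CPM. None of the 3 passed the size rule in any pair. In the AOM/DSS pair labelled knockout Psmb5 did not differ beyond counting error (1.04-fold lower, 0.982 to 1.10), while Psmb6 was 1.33-fold and Psmb7 1.46-fold higher. The untreated library labelled knockout had 1.55-fold more Psmb5 than untreated WT, and this difference enters its low ratio of Psmb8 to Psmb5. Nek6, on the opposite strand, shares 34.9% of the exon bases of Psmb7. Mir686, on the same strand, shares 12.1% of those of Psmb5.

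Other ratios within a library were chosen after the values had been seen. Tap1 over Tap2 per kb was 1.63 in untreated WT (1.53 to 1.74), 0.917 in the untreated library labelled knockout (0.851 to 0.987), 1.74 in WT AOM/DSS (1.61 to 1.87) and 4.31 in the AOM/DSS library labelled knockout (4.16 to 4.46). The partners of 1 transporter were thus near equal in the second library and far apart in the last. H2-K1 over H2-D1 was 1.76, 1.93, 1.69 and 1.83, and B2m over H2-K1 was 0.754, 0.693, 0.719 and 0.706. The class I chains therefore kept nearly the same proportions in all 4 libraries. Tap1 over Psmb9, the neighbours with overlapping promoters, was 0.772, 0.585, 0.763 and 1.18.

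**Figure D4:**
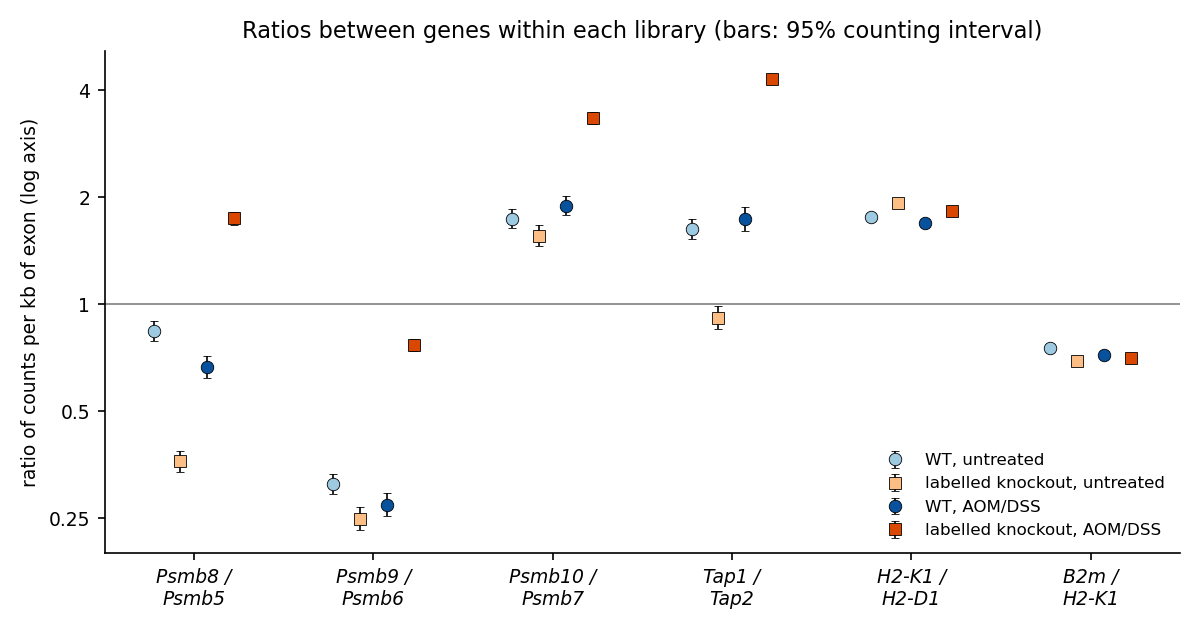
Ratio of counts per kb of exon between named genes (vertical, log axis) in each library, 1 point per library with the 95% counting interval. Psmb8 over Psmb5 and Tap1 over Tap2 spread from 0.362 to 1.74 and from 0.917 to 4.31, while H2-K1 over H2-D1 and B2m over H2-K1 stay nearly level.

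The rest of the pathway was described from 7 lists with 98 genes in the table. Other class I and class I-like heavy chain genes went both ways. In the AOM/DSS pair labelled knockout 10 of 18 measured genes passed the rule as higher and 2 as lower, where 14.1% and 15.9% of all genes did, so the share that was lower is no larger than that of all genes. They had a median log2 ratio of 1.12 against -0.03 for all genes with 50 counts over the libraries. The Qa-type genes H2-Q6, H2-Q7 and H2-Q4 were 12.3-fold (11.5 to 13.2), 7.58-fold (6.98 to 8.24) and 6.57-fold higher (6.28 to 6.89), though these genes are close copies and single members are uncertain. The 2 lower genes were H2-T3 and, named after its value was seen, Fcgrt, the receptor that carries IgG across epithelium. H2-T3, the thymus leukaemia antigen of gut epithelium, stood at 101 CPM in untreated WT, 27.6 CPM in the untreated library labelled knockout, 104 CPM in AOM/DSS-treated WT and 0.410 CPM (13 counts) in the AOM/DSS library labelled knockout. It was 67.3-fold lower in that pair (39.1 to 127), in the library where the colonocyte and goblet markers were also lowest. The part of those cells in this difference was not tested. In the WT pair 1 of 17 genes was lower, H2-T24 (also named after its value was seen), and none higher. Of all genes, 3.88% were lower and 4.08% higher by the rule in that pair. Between the untreated libraries 4 of 18 were lower under the knockout label, where 3.37% of all genes were, and none higher. These were H2-T3 and, named after their values were seen, H2-Q1, H2-Q2 and H2-Q10. H2-Q1 and H2-Q10 were also among the 10 higher in the AOM/DSS pair labelled knockout. Between the AOM/DSS libraries 8 of 18 were higher and 3 lower, where 11.9% and 12.4% of all genes were.

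Of 11 genes that help load and trim peptides, 1 was past the rule in the AOM/DSS pair labelled knockout, a share no larger than the 14.1% of all genes that were higher. The median log2 ratio was 0.50 against -0.03 for all genes. The gene past the rule was Tapbpl, a tapasin-related peptide editor (2.71-fold higher, 2.54 to 2.89). Erap1, the peptidase that trims peptides in the endoplasmic reticulum, was 1.90-fold higher, Pdia3, a loading complex disulfide isomerase, 1.88-fold, and Tpp2, a cytosolic peptidase, 2.00-fold, which fell short of the rule on the log2(CPM + 1) scale. None of the 11 passed in the WT pair or the untreated pair.

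Of 11 measured subunits of the 20S core outside the catalytic ones, 4 passed as higher in the AOM/DSS pair labelled knockout, where 14.1% of all genes did (median log2 ratio 0.69), among them the structural subunits Psma3 (2.53-fold, 2.21 to 2.90), Psma4 (2.27-fold) and Psmb3 (2.11-fold). Psma1 was 1.76-fold higher there, and Psma6, named after its value was seen, was 1.35-fold lower (1.25 to 1.45). Of 9 activator and assembly genes 4 passed (median 0.65). Psme2 and Psme1, the subunits of the PA28 activator that interferon gamma induces, were 3.01-fold (2.78 to 3.25) and 2.75-fold higher (2.63 to 2.88), the nuclear activator Psme3 2.42-fold, and the assembly chaperone Psmg1 2.66-fold. Pomp, the proteasome maturation factor, also named after its value was seen, was 1.35-fold lower (1.25 to 1.45). None of these genes passed in the WT pair.

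**Figure D5:**
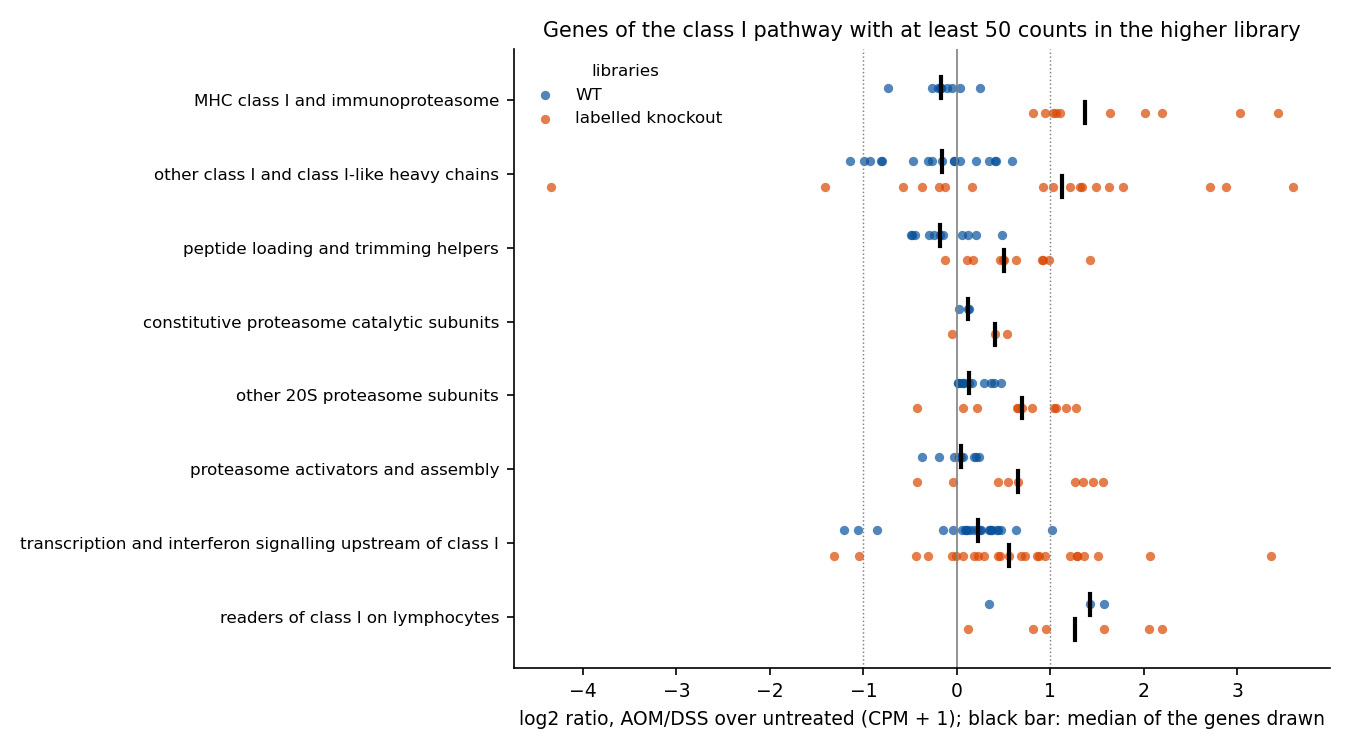
Log2 ratio of AOM/DSS over untreated on the log2(CPM + 1) scale (horizontal) for genes reaching 50 counts in either library, by list, in the WT libraries (blue) and the libraries labelled knockout (orange), with a black bar at the median of the genes drawn and dotted lines at 2-fold. The standard catalytic subunits stay inside the dotted lines in both, while 8 of the 10 MHC class I and immunoproteasome genes lie beyond the upper line in the libraries labelled knockout.

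Of 25 measured genes of interferon signalling and transcription upstream of class I, 7 were higher by the rule and 2 lower in the AOM/DSS pair labelled knockout, where 14.1% of all genes were higher and 15.9% lower (median log2 ratio 0.56). The share that was lower is below that of all genes. The 2 lower genes, named after their values were seen, were Ifngr1, a chain of the interferon gamma receptor, and Rfxank, a subunit of the RFX complex. Ifng, the gene of interferon gamma, had 1, 0, 8 and 101 counts in the order of libraries given for H2-K1, and was at least 23.1-fold higher in the AOM/DSS library labelled knockout against a floor of 3 counts in its untreated library. Socs1, a feedback inhibitor of this signal, was 3.96-fold higher (2.77 to 5.81) and Stat2, a transcription factor of the type I interferon response, 2.59-fold higher in that pair. In WT the response of Stat2 went the other way, at 2.33-fold lower (2.18 to 2.49). Irf9 was also lower by the rule there, and Ciita was higher (11.6 and 24.5 CPM), both named after their values were seen. In that WT pair 1 of 23 measured genes was higher and 2 lower, where 4.08% and 3.88% of all genes were. The list had a median log2 ratio of 0.23 there, against 0.01 for all genes with 50 counts over the libraries.

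Genes of the receptors and coreceptors that read class I were mostly low. In the AOM/DSS pair labelled knockout 6 of the listed genes reached 50 counts. Of these, 3 were higher by the rule, where 14.1% of all genes were. The median log2 ratio was 0.89 over the 8 genes with 50 counts summed over the libraries. Cd8b1, a chain of the CD8 coreceptor, stood at 1.31, 1.24, 5.87 and 8.33 CPM, in the order given for H2-K1. Pirb, an inhibitory receptor for class I found mainly on B cells and myeloid cells, stood at 7.34, 8.70, 21.4 and 43.4 CPM. Both were above their untreated level in the AOM/DSS library of either genotype label and passed the rule in both pairs. In the WT pair they were 2 of 3 measured genes, where 4.08% of all genes were higher. Cd8a, the other chain of the coreceptor, stood at 7.58, 5.57, 9.90 and 10.6 CPM and passed in neither pair. Klrc1, the NKG2A chain of a natural killer cell receptor, stood at 0.238, 0.184, 0.734 and 2.53 CPM.

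Markers of other cells differed between the same libraries. The summed level of 8 myeloid markers was 483 CPM in the AOM/DSS library labelled knockout and 154 to 201 CPM in the others. Of the 7 measured in the AOM/DSS pair labelled knockout, 5 were higher by the rule, where 14.1% of all genes were. The 5 were Itgam, Itgax, Csf1r, Cd68 and Emr1, with Itgax, a marker of dendritic cells and macrophages, at 22.9 and 74.3 CPM in that pair and Csf1r, the macrophage growth factor receptor, at 76.4 and 184 CPM. The dendritic cell markers Flt3 (2.95 and 1.07 CPM) and Xcr1 (1.56 and 0.663 CPM) were lower, on 21 to 64 counts. The neutrophil marker Ly6g stood at 54.7 and 53.0 CPM in that pair, and at 1 count in untreated WT. Lymphoid markers did not follow, with a summed level of 69.0 CPM in untreated WT, 134 CPM in the untreated library labelled knockout, 188 CPM in AOM/DSS-treated WT and 165 CPM in the AOM/DSS library labelled knockout. Epithelial markers summed to 8427 CPM in the AOM/DSS library labelled knockout and 9541 to 11653 CPM in the others. Of these 6, 1 was higher by the rule in that AOM/DSS pair, Krt18 (343 and 780 CPM), and 1 lower, Epcam (1647 and 632 CPM). Smooth muscle markers summed to 1049 CPM against 5343 to 7079 CPM, and endothelial markers to 154 CPM against 166 to 175 CPM. By the rule, 5 of 5 smooth muscle and 6 of 7 colonocyte and goblet markers were lower in that pair. Of all genes, 15.9% were. Adipocyte markers summed to 144 CPM in untreated WT and 3.09 to 47.4 CPM elsewhere. No marker of these lists was at 0 in any library, and the part of any of these cells in the class I levels was not tested.

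The genes whose pattern over the 4 libraries was most like the mean of the 10 were found among 13042 genes with at least 200 counts in all. Likeness was the root mean square difference of centred log2(CPM + 1) values, with a median of 0.74 over those genes. The closest were Cadps (0.025), H2-T22 (0.037), Cep55 (0.047), Ltv1 (0.058) and Ccdc136 (0.067), followed by Spsb1, Tmem229b, Runx2, Klhl8 and N4bp3 (0.067 to 0.076). H2-T22, a class I-like gene, was the only gene of the pathway lists among these 10, at 90.2, 75.6, 80.6 and 236 CPM. Among the 10 class I and immunoproteasome genes themselves, Psmb9 was nearest to their mean (0.14) and Nlrc5 (0.63) and Tap1 (0.49) farthest. A pattern of 4 points is met by many genes, so this is a description.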

How the data were processed

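Total RNA sequencing of mouse colon gave 1 library for each of 4 groups. The authors deposited whole-number read counts per gene, and per the submitters' processing notes the genome build was GRCm38 (mm10). The aligner, counter, annotation and strand setting were not given in the sources used here. From the deposited counts, CPM was computed with TMM factors (edgeR 4.0.16, R 4.3.3). Python 3.11.15, scipy 1.17.1 and matplotlib 3.10.9 served for the rest. With 1 library per group no test between groups was made. Folds are ratios of CPM with an exact 95% Clopper-Pearson counting interval, conditional on the summed counts. Log2 ratios use log2(CPM + 1). The size rule asks for 50 counts in the higher library and a 2-fold difference on that scale, and a count of 0 was set at a floor of 3 counts for a bound. The interval and the size rule were tested on simulated data with counting error alone, scaled by library totals. That simulation did not test the TMM scaling or any spread between animals. Exon length is the union of exons of basic protein-coding transcripts in GENCODE M21, which also gave positions. The named genes are the 10 genes, Card9, the standard catalytic subunits, up to 4 genes of each other pathway list with the largest log2 ratio in any pair, the markers, and the 10 genes most alike. Some results under this rule are not reported here. The 10 genes and the lists were chosen with earlier results of these data known. Alternatives were DESeq2 1.42.0 size factors, library totals, upper-quartile factors, thinning to the smallest library, leaving out abundant genes, pseudocounts of 0.5 and 5 CPM, other count minimums, and ratios without exon length.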

Additional observations from a re-analysis of the deposited data

Results flagged for a closer look

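The AOM/DSS response had opposite directions in the WT libraries and the libraries labelled knockout for 8 of the 10 genes, lower in WT and higher in the other. The WT side was small, from 1.03-fold lower in H2-D1 and 1.08-fold in H2-K1 to 1.21-fold in Tap2 and 1.67-fold in Tapbp. None passed the size rule in WT. The response under the knockout label exceeded that in WT by a log2 difference of 1.14 for H2-K1, 1.15 for H2-D1 and 1.23 for B2m. It was 3.21 for Tap1, 1.08 for Tap2 and 1.67 for Tapbp. It was 2.40 for Psmb8 and 2.18 for Psmb9. With 1 library per group, none of these differences was tested. The same opposite directions were seen in 21.9% of all 16383 genes with 50 counts.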

How the results depend on the processing

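No paired analysis was possible because each group has 1 library, and the replicate number 1 only names a sample. No value turned direction past a call. Under library totals alone the median log2 ratio of the 10 genes was 1.67 in the AOM/DSS pair labelled knockout, 1.69 between the AOM/DSS libraries, -0.30 between the untreated libraries and 1.89 for the difference of responses. Library totals also moved the share of called genes that were higher from 47.0% to 64.1% in the AOM/DSS pair labelled knockout, and from 48.9% to 64.2% between the AOM/DSS libraries. Pathway genes past 2-fold numbered 33 higher between the AOM/DSS libraries under library totals (19 in the report's setting). Between the untreated libraries 1 was higher under DESeq2 size factors, library totals or upper-quartile factors and 0 with a pseudocount of 5 CPM (2 in the report's setting). In WT after AOM/DSS 1 was higher and 1 lower with that pseudocount (3 and 3). A minimum of 200 counts left 409 genes higher in WT after AOM/DSS. With a pseudocount of 5 CPM, genes higher and lower numbered 314 and 268 in the WT pair, 1408 and 1587 in the pair labelled knockout, 372 and 248 between the untreated libraries, and 1132 and 1235 between the AOM/DSS libraries. Without division by exon length, in the order of the libraries used in the report, Psmb8 over Psmb5 was 1.53, 0.655, 1.21 and 3.16. Psmb9 over Psmb6 was 0.529, 0.422, 0.463 and 1.30, and Psmb10 over Psmb7 was 1.97, 1.76, 2.14 and 3.78. Beyond the scaling and length choices named, the cause was not tested. Counting error is small for the 10 genes, with at least 430 counts each, and the spread between animals is unknown.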
